A study of Rattus norvegicus with 6 samples.

Results

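A group of 753 piRNA probes had higher scaled levels on all arrays of adult rat islets than on any array of islets from 10-day-old pups, at levels below those of the brightest probes. They are 8.49% of the 8874 piRNA probes that every one of the 6 arrays showed well above background and without an outlier mark, and 1.90% of the 39727 piRNA probes printed. A probe entered the group when its lowest adult level lay above its highest P10 level, its adult mean exceeded its P10 mean by more than 1 on the log2 scale, and its adult mean level was at most 7. The level is the log2 processed signal minus that of the probe standing at the 75th percentile of the array, counted over the probes well above background everywhere. A level of 0 is therefore as bright as that probe, and a difference of 1 is a 2-fold change in relative brightness. In processed signal before this scaling, the adult arrays lay above all P10 arrays for 565 of the 753 probes, and the ages overlapped for the other 188. The same was not counted over all detected probes. The members were chosen by these signals, so their difference between the ages is a description here and was not tested.

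Adult islets came from 3 rats of 3 months, each extracted singly, and P10 islets from 3 samples of pups aged 10 days, each pooling 2 pups. The labels give no strain, sex or treatment, and all 6 samples are total RNA of pancreatic islets. The RNA was labelled with the dye Cy3 at its 3′ end by RNA ligase and hybridised to 1-colour arrays on which each piRNA probe has 1 spot. The label of the tissue could not be checked on these arrays, because 0 of 42 marker genes of endocrine, acinar, ductal, vascular, stromal, blood, immune and germline cells were found among the 159 other probes. Fewer cells of a type and less RNA per cell cannot be told apart in such bulk samples.

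PIWI-interacting RNAs are small RNAs bound by PIWI proteins, a branch of the Argonaute family. They are best known from the germline, where they guide the silencing of transposons, and many derive from long precursor transcripts of genomic clusters. Islets are the endocrine clusters of the pancreas, whose beta cells secrete insulin and acquire their mature response to glucose after birth. Each probe is called by the sequence entry it carries, and the sequences, genomic positions and annotated genes of these entries were not used here.

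Between 27.6% and 36.9% of the piRNA probes were well above background on an array, and no spot was saturated. By their scan identifiers, the P10 arrays and Adult 1 were taken to share slide 1, and Adult 2 and Adult 3 slide 2. Age and slide thus overlap in part. Over the 8874 detected probes the array medians lay close together, at -1.66, -1.71 and -1.68 in Adult 1, 2 and 3 and at -1.71, -1.58 and -1.60 in P10 1, 2 and 3. Their median difference, adult minus P10, was 0.05 on the log2 scale.

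Among the 753 probes the arrays of one age differed from each other. The median level was 0.02 in Adult 1, 0.42 in Adult 2 and 0.76 in Adult 3, against -0.92 in P10 1, -2.11 in P10 2 and -1.85 in P10 3. Adult 1 was the lowest adult array for 578 of the 753 probes (76.8%, against 47.6% of the detected probes), and P10 1 was the highest P10 array for 606 (80.5%, against 32.5%). Both held for 456 probes (60.6%, against 14.2%). Among all 1485 detected probes with every adult level above every P10 level, these shares were 66.9%, 61.8% and 41.8%. In the group the arrays numbered 1 thus lay nearest to each other across the ages. Both were on slide 1, but so were P10 2 and P10 3. On slide 1 alone, where Adult 1 is the single adult array, the median difference was 1.43, against 1.76 over all arrays. The part of the slide in this was not tested.

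The difference between the ages ran from 1.00 to 5.48 on the log2 scale, with a median of 1.76, or 3.40-fold, and quartiles of 1.29 and 2.47. It lay between 1 and 2 for 453 probes, between 2 and 3 for 189, between 3 and 4 for 94 and above 4 for 17. The distance that separated the ages, from the highest P10 level up to the lowest adult level, was smaller, with a median of 0.73. It exceeded 0.5 for 525 probes, 1 for 205 and 2 for 17. Ages without overlap are common on these arrays: 1485 of the 8874 detected probes, or 16.7%, had every adult level above every P10 level, and 11.8% had every adult level below. The rule used this separation, so nothing is read from the contrast.

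Replicates scattered more in pups. The median SD over 3 arrays was 0.46 in adult and 0.55 in P10 islets among the 753 probes, against 0.34 and 0.42 among all detected probes. The P10 SD was the larger one for 472 of the 753, and for 5336 of the 8874. Within the group the P10 SD rose with the adult mean. It had a median of 0.37 among the 198 probes with an adult mean up to -1, and 1.40 among the 32 with an adult mean between 5 and 7. The adult SDs of the same probes had medians of 0.40 and 0.41. In these probes P10 1 lay a median of 0.44 and 2.33 above the mean of P10 2 and P10 3, which enters the P10 SD. The trend was not looked at over all detected probes.

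The word mid-level describes the group only loosely. Adult mean levels ran from -2.95 to 6.91 with a median of 0.44, and 332 probes (44.1%) had an adult mean below 0, as had 76.3% of the detected probes. P10 mean levels ran from -4.13 to 4.60 with a median of -1.66. In units of processed signal, the median of the 753 probes was 150, 152 and 180 in Adult 1, 2 and 3, against 98.1, 23.5 and 41.4 in P10 1, 2 and 3. The dimmest signal of a probe was 12.1 in adult arrays and 5.68 in P10 arrays, where local background had a median of 19 to 21 before subtraction.

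Within the group, members with a higher adult mean had larger differences. The median difference was 1.31, or 2.48-fold, among the 198 probes with an adult mean up to -1. It was 1.76 among the 244 between -1 and 1, 2.13 among the 186 between 1 and 3, and 2.88 among the 93 between 3 and 5. In the 32 probes between 5 and 7 it reached 3.14, or 8.80-fold. Ranked by the mean over all 6 arrays, the group made up 2.60% of the detected probes at or below -3, 9.66% between -1 and 0 and 17.6% between 2 and 3. The rule sets a fixed difference, the adult mean is a term of it, and every P10 signal had to be well above background. A dim member therefore had less room for a large difference. These medians and shares describe the selection and were not tested.

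Dim P10 signals touched part of the group. A signal counted as dim below 2 times the lowest signal of any piRNA probe well above background on its array. In P10 2, 187 of the 753 probes were this dim (24.8%, against 13.7% of the detected probes). In P10 3 there were 89 (11.8%, against 7.93%), and in P10 1 there were 13 (1.73%, against 4.11%). In the adult arrays there were 0, against 4.88%, 14.4% and 13.9% of the detected probes in Adult 1, 2 and 3. The rule favours this 0, because it sets adult levels above P10 levels that were well above background. Altogether 194 probes were this dim in at least 1 P10 array, and their median difference was 1.55, against 1.82 in the other 559. The ratio of signal to its estimated error was similar in all arrays, between 9.96 and 9.98 in adult and between 8.93 and 9.91 in P10 arrays (medians of the 753 probes).

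DQ605460, with the largest difference of the group, stood at 4.26, 4.57 and 4.80 in Adult 1, 2 and 3, against 0.62, -1.75 and -1.67 in P10 1, 2 and 3. Its lowest adult level lay 3.64 above its highest P10 level, the widest separation among the 753. The means were 4.54 ± 0.27 in adult and -0.93 ± 1.35 in P10 islets (SD, n = 3 each), a difference of 5.48, or 44.5-fold. DQ622874 stood at 3.39, 3.82 and 4.37 in Adult 1, 2 and 3, against 0.69, -2.63 and -2.01 in P10 1, 2 and 3, a difference of 5.18. DQ622875, the next entry, stood at 3.51, 3.90 and 4.41 in Adult 1, 2 and 3, against 1.46, -2.80 and -1.24 in P10 1, 2 and 3, a difference of 4.80. In all 3 Adult 1 was the lowest adult array, and P10 1 lay above the other P10 arrays by more than the adult arrays spanned.

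DQ733848 had the tightest adult levels of the leading probes, at 6.33, 6.35 and 6.42 in Adult 1, 2 and 3, against 3.98, -0.23 and 0.88 in P10 1, 2 and 3. DQ620900 gave 6.27, 6.68 and 6.46 in Adult 1, 2 and 3, against 4.07, 0.05 and 1.23 in P10 1, 2 and 3. DQ762218 gave 6.03, 6.77 and 6.53 in Adult 1, 2 and 3, against 3.99, 0.49 and 0.90 in P10 1, 2 and 3. These 3 were bright, with adult means of 6.36, 6.47 and 6.44, and their differences of 4.82, 4.69 and 4.65 rested on P10 values that spanned more than 3 on the log2 scale. DQ614314 gave 3.66, 3.95 and 4.84 in Adult 1, 2 and 3, against 0.94, -1.10 and -1.28 in P10 1, 2 and 3, a difference of 4.63 with the ages well apart. DQ736839 gave 2.50, 3.30 and 3.37 in Adult 1, 2 and 3, against 1.22, -2.84 and -2.70 in P10 1, 2 and 3, a difference of 4.50. In DQ736839 the level of P10 1 lay nearer to the adult arrays than to the other P10 arrays.

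The remaining leaders were DQ623960, DQ741815, DQ615508 and DQ743223, with differences of 4.35, 4.34, 4.29 and 4.24. DQ623960 was at 4.15, 4.96 and 4.73 in Adult 1, 2 and 3, against 2.00, -1.18 and -0.02 in P10 1, 2 and 3. DQ741815 was at 1.91, 3.15 and 3.85 in Adult 1, 2 and 3, against 0.19, -1.82 and -2.48 in P10 1, 2 and 3. Its adult arrays spread more widely than those of the other leaders, with an SD of 0.99. DQ615508, the dimmest of the leaders, was at 1.61, 2.28 and 2.67 in Adult 1, 2 and 3, against -0.15, -3.44 and -2.73 in P10 1, 2 and 3, and DQ743223 was at 3.20, 3.95 and 3.75 in Adult 1, 2 and 3, against 1.97, -2.55 and -1.25 in P10 1, 2 and 3. All 12 had P10 1 as their highest P10 array and Adult 1 as their lowest adult array. Normexp background correction with an offset of 50, which compresses dim signals by construction, moved the differences of the 12 to between 2.18 and 3.87. On slide 1 alone they lay between 3.27 and 5.20.

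Large differences and clean separation did not always go together. Among the 8 probes with the widest separation, 4 were not among the 12 leaders. DQ611547 stood at 3.06, 3.48 and 3.89 in Adult 1, 2 and 3, against 0.33, -1.32 and 0.15 in P10 1, 2 and 3, with 2.73 between the ages. DQ728213 stood at -0.71, -0.69 and -0.42 in Adult 1, 2 and 3, against -3.32, -4.03 and -3.17 in P10 1, 2 and 3, with 2.46 between the ages. Its difference was only 2.90, but its arrays lay close together, at -0.61 ± 0.17 in adult and -3.51 ± 0.46 in P10 islets (SD, n = 3 each). DQ603818 stood at 2.49, 2.91 and 3.56 in Adult 1, 2 and 3, against 0.17, -0.87 and -0.27 in P10 1, 2 and 3, and DQ625854 at 0.77, 1.30 and 1.92 in Adult 1, 2 and 3, against -1.46, -3.70 and -2.82 in P10 1, 2 and 3. For DQ728213 the highest P10 array was P10 3.

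In 155 of the 753 probes (20.6%) the distance between the ages was wider than the range of either age. Among all detected probes 221, or 2.49%, had this pattern with adult islets higher, a share that cannot be set against that of the group because the rule used the same values. In these 155 the median level was -0.62, -0.27 and -0.15 in Adult 1, 2 and 3, against -1.75, -2.29 and -2.09 in P10 1, 2 and 3. P10 1 stood a median of 0.39 above the mean of P10 2 and P10 3 there, against 0.81 in the whole group. Their median difference of 1.74 was close to that of the group.

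The 8 tightest probes, in which both ages had an SD of at most 0.183, showed small differences with hardly any scatter. DQ739615 was at -0.20, -0.16 and -0.34 in Adult 1, 2 and 3, against -1.82, -1.996 and -1.88 in P10 1, 2 and 3, a difference of 1.67, or 3.18-fold. DQ732545 was at 0.88, 0.95 and 1.03 in Adult 1, 2 and 3, against -0.18, -0.26 and -0.36 in P10 1, 2 and 3, a difference of 1.22. In both, the step between the ages was more than 5 times the range within an age. DQ759009 was at -1.002, -1.26 and -1.15 in Adult 1, 2 and 3, against -2.15, -2.39 and -2.44 in P10 1, 2 and 3. DQ755597 was at -2.33, -2.66 and -2.47 in Adult 1, 2 and 3, against -3.59, -3.76 and -3.69 in P10 1, 2 and 3. DQ737639 was at -1.27, -1.45 and -1.26 in Adult 1, 2 and 3, against -2.54, -2.40 and -2.22 in P10 1, 2 and 3. Here Adult 1 was not the lowest adult array, in contrast to most of the group. DQ624498 was at -2.11, -2.27 and -1.94 in Adult 1, 2 and 3, against -3.05, -3.16 and -3.22 in P10 1, 2 and 3. DQ601970 was at -0.67, -0.68 and -0.43 in Adult 1, 2 and 3, against -1.52, -1.54 and -1.83 in P10 1, 2 and 3. DQ739852 was at -0.46, -0.20 and -0.12 in Adult 1, 2 and 3, against -1.46, -1.14 and -1.45 in P10 1, 2 and 3. These last 3 differed by 1.04, 1.03 and 1.09, near the limit of the rule.

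The brightest member, DQ755559, had an adult mean of 6.91 and stood at 6.34, 7.36 and 7.03 in Adult 1, 2 and 3, against 5.63, 4.69 and 3.16 in P10 1, 2 and 3. DQ608420 came next at 6.14, 6.81 and 6.87 in Adult 1, 2 and 3, against 4.94, 2.27 and 2.77 in P10 1, 2 and 3. DQ731997 stood at 6.12, 6.54 and 6.57 in Adult 1, 2 and 3, against 5.09, 2.42 and 2.28 in P10 1, 2 and 3. In each of these 3 the P10 1 array lay closest to the adult arrays, and the remaining probes among the brightest were DQ620900 and DQ762218, described above. At the dim end, DQ758692 stood at -3.15, -2.79 and -2.89 in Adult 1, 2 and 3, against -4.23, -3.74 and -4.09 in P10 1, 2 and 3, and DQ750195 at -3.18, -2.79 and -2.68 in Adult 1, 2 and 3, against -4.13, -4.01 and -4.25 in P10 1, 2 and 3. In both, all values lay far below the median of the group. DQ746229 stood at -3.27, -2.77 and -2.70 in Adult 1, 2 and 3, against -3.46, -4.10 and -4.27 in P10 1, 2 and 3. DQ611727 stood at -3.30, -2.97 and -2.45 in Adult 1, 2 and 3, against -4.01, -3.91 and -4.20 in P10 1, 2 and 3. DQ602403 stood at -3.11, -3.10 and -2.51 in Adult 1, 2 and 3, against -4.30, -3.79 and -3.82 in P10 1, 2 and 3. In DQ746229 P10 1 was the highest array of its age, and in DQ758692 and DQ602403 the lowest. All 5 dim probes differed by between 1.03 and 1.25, just past the limit of the rule.

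Some members carried consecutive entry numbers. Of the 753 probes, 62 formed 31 pairs with consecutive entry numbers, and the longest run was 2. A consecutive entry that was itself detected on all arrays was present 299 times next to a member, and in 62 of these places (20.7%) it was a member too, against 8.49% of all detected probes. The pairs lay mostly in the earlier numbers. Between DQ601959 and DQ628522 members held 56 of 186 such places (30.1%), against 9.40% of the detected probes there. From DQ730000 on they held 6 of 108 (5.56%), against 7.85%. Neighbouring entries can derive from overlapping or adjacent sequences, in which case they are not independent measurements; this was not tested.

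Partners of a pair often stood at different levels. On the adult array where they lay farthest apart, their distance was between 0.12 and 5.66 on the log2 scale with a median of 1.07, and it exceeded 1 in 16 of the 31 pairs. The widest distance was that of DQ602373 and DQ602374. Within a pair, the adult minus P10 differences of the partners lay a median of 0.42 apart, and less than 0.5 apart in 18 pairs, which was not compared with unpaired members. DQ622874 and DQ622875, given above, were the closest pair, within 0.12 of each other on every adult array. DQ619341 stood at 3.01, 3.43 and 3.57 in Adult 1, 2 and 3, against 0.95, -1.09 and -0.41 in P10 1, 2 and 3, and DQ619342 at 3.96, 4.80 and 4.94 in Adult 1, 2 and 3, against 2.56, -0.41 and -0.02 in P10 1, 2 and 3. DQ605961 stood at 0.44, 1.20 and 1.60 in Adult 1, 2 and 3, against -0.55, -3.39 and -2.78 in P10 1, 2 and 3, and DQ605962 at 0.54, 1.08 and 1.58 in Adult 1, 2 and 3, against -0.73, -3.26 and -4.05 in P10 1, 2 and 3. On each adult array these last partners, the next closest pair, lay within 0.13 of each other. DQ614315 stood at 1.17, 1.88 and 2.33 in Adult 1, 2 and 3, against 0.21, -1.29 and -1.46 in P10 1, 2 and 3, with a difference of 2.64, against 4.63 in its partner DQ614314, the widest disagreement of all 31 pairs.

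Most entries around these 4 pairs were near or below background. DQ614313, detected on all arrays and bright, was at 6.40, 5.71 and 5.996 in Adult 1, 2 and 3, against 5.65, 5.75 and 5.45 in P10 1, 2 and 3, and its ages overlapped. DQ605963, after the pair DQ605961 and DQ605962, was at 0.23, 0.61 and 0.98 in Adult 1, 2 and 3, against -1.76, -4.47 and -4.15 in P10 1, 2 and 3. It showed the pattern of the pair but was well above background on only 5 arrays and is therefore no member. DQ622873, before the pair DQ622874 and DQ622875, was well above background on 5 arrays too, but dim, at -3.38, -3.10 and -2.78 in Adult 1, 2 and 3, against -4.14, -4.29 and -4.01 in P10 1, 2 and 3. Its ages were separated with a difference of 1.06. The other 5 flanking entries were well above background on at most 2 arrays. Over the group as a whole, 237 pairs of consecutive entries joined a member to a detected non-member. These non-member neighbours had a median difference of 0.02, and 121 of the 237 (51.1%) were higher in adult islets, against 49.1% of all detected non-members.

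In some members a single array stood far from the others of its age. Adult 1 fell farthest short of the other adult arrays in DQ732480, which stood at -0.46, 1.49 and 2.33 in Adult 1, 2 and 3, against -1.18, -2.61 and -3.38 in P10 1, 2 and 3. DQ603417 stood at -0.02, 1.86 and 2.16 in Adult 1, 2 and 3, against -0.13, -3.07 and -2.58 in P10 1, 2 and 3. DQ757818 stood at 2.01, 4.08 and 4.01 in Adult 1, 2 and 3, against 1.63, -1.34 and -1.26 in P10 1, 2 and 3. In DQ603417 the ages were only 0.11 apart, between Adult 1 and P10 1. DQ602379 stood at 0.25, 1.80 and 2.35 in Adult 1, 2 and 3, against 0.22, -1.51 and -0.81 in P10 1, 2 and 3, and DQ731024 at 3.25, 5.03 and 5.09 in Adult 1, 2 and 3, against 3.13, -0.19 and 0.44 in P10 1, 2 and 3. Both had a similar shape, with Adult 1 at -1.82 and -1.81 relative to the mean of Adult 2 and Adult 3, and only 0.03 and 0.12 between the ages.

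P10 1 stood farthest above the other P10 arrays in DQ736839, by 3.99, followed by DQ744712, DQ739512, DQ743223 and DQ733848. DQ744712 was at 5.93, 6.45 and 6.55 in Adult 1, 2 and 3, against 4.92, 0.62 and 1.34 in P10 1, 2 and 3. DQ739512 was at 4.59, 5.44 and 5.55 in Adult 1, 2 and 3, against 4.04, 0.01 and 0.29 in P10 1, 2 and 3. Members in which P10 1 stood out were those with large differences: in the 127 probes where it lay more than 2 above the mean of P10 2 and P10 3, the median difference was 3.29 and the median adult mean 2.81. In the 71 probes where it lay below that mean, they were 1.24 and -0.80. The rule places every adult level above P10 1, so a P10 1 far above its fellows sets a minimum for the difference. These medians describe the selection and were not tested.

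At the limit of 1, probes inside and outside had nearly the same difference. Just inside the limit of 1 lay DQ609604, DQ622277 and DQ734621, all with differences of 1.00. DQ609604 stood at -1.07, -1.30 and -1.15 in Adult 1, 2 and 3, against -1.73, -2.29 and -2.51 in P10 1, 2 and 3. DQ622277 stood at -2.36, -2.03 and -2.28 in Adult 1, 2 and 3, against -3.14, -2.85 and -3.68 in P10 1, 2 and 3, and DQ734621 at -1.69, -1.01 and -0.94 in Adult 1, 2 and 3, against -2.08, -2.03 and -2.54 in P10 1, 2 and 3. All 3 were dim, with every level below 0. Just outside lay DQ762045, DQ611376 and DQ737476, with differences of 1.00, 1.00 and 1.00. DQ737476 stood at 0.30, 1.09 and 0.82 in Adult 1, 2 and 3, against -0.19, 0.03 and -0.61 in P10 1, 2 and 3, and DQ611376 at -0.14, -0.04 and -0.10 in Adult 1, 2 and 3, against -1.71, -0.53 and -1.03 in P10 1, 2 and 3. In all, 685 probes with separated ages and an adult mean up to 7 stayed outside because their difference was at most 1. At the limit of 7 for the adult mean, DQ755559, DQ608420 and DQ620900 lay inside, as given above, with differences of 2.41, 3.28 and 4.69. DQ604021, at 6.75, 7.69 and 7.35 in Adult 1, 2 and 3, against 5.35, 0.53 and 0.36 in P10 1, 2 and 3, lay just outside with a difference of 5.18, as did DQ602396 and DQ614101, with adult means of 7.67 and 7.79 and differences of 1.13 and 1.11.

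The 39 probes above that limit that met the same rule otherwise, and the 541 that met it in the opposite direction, show how the 753 lie among their like. The 39 had a median difference of 4.28, with medians of 9.91, 9.59 and 9.22 in Adult 1, 2 and 3, against 8.20, 3.80 and 4.28 in P10 1, 2 and 3, and P10 1 stood a median of 4.64 above its fellows. The 541 had a median difference of -1.49, with medians of -1.59, -2.23 and -2.30 in Adult 1, 2 and 3, against -0.50, -0.53 and 0.09 in P10 1, 2 and 3. Adult 1 lay nearest to the P10 arrays among the 541 probes too, as their highest adult array in 378 cases, against 3107 of the 8874 detected probes. P10 1 was their lowest P10 array in 233 cases, a share near that of all detected probes (3574 of 8874). It stood at a median of -0.30 relative to the mean of P10 2 and P10 3, against -0.10 over all detected probes. All 3 groups were cut from the same contrast, and no difference between them was tested.

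Fitted over the whole table with limma, 515 of 11900 tested piRNA probes, or 4.33%, were called higher in adult islets at a Benjamini-Hochberg adjusted p below 0.05, and 211, or 1.77%, lower. With normexp these counts were 47 and 82. With slide as a block, only 1 probe was called higher, 0 were called lower and 0 members were called. Of 11883 probes tested there, 828 had an unadjusted p below 0.05 in the adult direction, and 420 of these were members (limma). Of the 753 members 328 were among the probes called higher, and 750 had an unadjusted p below 0.05, which 13.9% of all tested probes had in that direction. The rule and the fit used the same contrast, so nothing is read from these counts. The adjusted p-values of the members (limma) crowded around the threshold, with a lowest value of 0.038 and a median of 0.054. The 328 called members had a median difference of 2.35 and the other 425 one of 1.36. The number of called members changed when an array was left out, and the cause was not tested. It was 0 without P10 2, P10 3, Adult 2 or Adult 3, but 540 without P10 1 and 554 without Adult 1 (limma). In the fits that called 0, between 1165 and 1408 probes passed 0.05 in the adult direction before adjustment (limma). Between 665 and 699 of them were members.

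The authors' deposited table of changed piRNAs, cut at an unadjusted p of 0.05 and at 2-fold, held 666 of the 753 probes (88.4%), all as higher in adult islets, and these were 63.1% of its 1056 higher probes, which in turn are 5.7% of the 18540 probes in the deposited values. In the authors' deposited table the largest folds among members were 41.0 for DQ605460, 34.8 for DQ622874 and 26.7 for DQ622875, against 44.5-fold, 36.2-fold and 27.8-fold here. The 87 members it leaves out had a median difference of 1.20, against 1.83 in the 666. In the deposited normalized values 743 of the 753 kept every adult value above every P10 value. Their median difference there was 1.76, against 0.08 over all detected probes. Members were chosen for separation on these arrays, and the deposited values were not counted in this way over all detected probes. The deposited table and values come from the same arrays and are no separate measurement.

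The rule did not use the entry number or the place on the array. Members made up 9.40% of detected probes between DQ601959 and DQ628522 (350 of 3725), 7.48% between DQ684789 and DQ729999 (27 of 361) and 7.85% from DQ730000 to DQ767590 (376 of 4788). The median difference of the members was 1.81, 1.77 and 1.67 in these ranges. Across the array, members made up between 6.74% and 9.08% of detected probes in eighths of its rows and between 7.29% and 9.21% in eighths of its columns, so that they were spread over the whole surface. Local background under the members had the same median as under all detected probes on 5 of 6 arrays, and on P10 3 it was 20 against 20.5.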

How the data were processed

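Spot intensity values were deposited by the authors as written by Agilent Feature Extraction 11.0.1.1, per the file headers, with background subtracted within the array and no normalization between arrays. Of 42734 spots, 1417 control spots were left out. Per the file headers, the deposited table of changed piRNAs gives the unadjusted p-value of an unpaired t-test, a fold between group means, and log2 normalized intensities. The deposited log2 value table holds 18540 probes, with the normalization software not given in the sources used here. The sample titles gave group and replicate, and arrays with the same scan identifier were taken to share a slide. The number of arrays limits the precision.

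The 75th percentile used for scaling was taken per array over 9028 piRNA probes; 154 of them carried a non-uniformity or population outlier mark on at least 1 array and were left out of the group. The whole-table fit used limma 3.58.1 (R 4.3.3, empirical Bayes, two-sided, Benjamini-Hochberg threshold of 0.05) on probes detected throughout at least 1 age, without marked spots. Its mean estimates were checked on simulated data with known folds and independent noise for each probe. That check did not cover deviations shared by the probes of an array, or false calls. Summaries used pandas 2.3.3 in Python 3.11.15. Alternatives were background correction, scaling, detection filter, blocks, array weights and arrays left out. Normexp used the median spot signal.

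The members and lists were chosen with earlier results of these data known. Named probes follow a rule: the 12 largest differences, the 8 widest separations, the 5 brightest and 5 dimmest, the 8 tightest, the 4 longest runs of consecutive entries (ties by difference), the 5 with Adult 1 lowest and the 5 with P10 1 highest against their group, the 3 probes on each side of each limit, and the 3 largest folds of the authors. Probe sequences were not used here.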

Additional observations from a re-analysis of the deposited data

How the results depend on the processing

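All 753 probes kept a positive adult minus P10 difference under the alternatives that can change one, which the choice of probes favours. These give 15 distinct sets of differences, since both detection filters and the replicate block leave every difference as it is, and slide as a block gives the same differences as slide 1 alone. Normexp gave 173 members instead of 753 (169 of them shared), a median difference of 0.91, 32 called members and 129 calls over the whole table, against 328 and 726 as reported; over all detected probes the median difference moved to 0.30 with it, and to 0.16 with scaling over all piRNA probes. Cyclic loess gave 6 called members and 27 calls, scaling to the median 480 calls, and detection on at least 1 array 1449 members with 0 called members and 0 calls, although 1718 probes then had an unadjusted p below 0.05 in the adult direction (limma). A limit of 1.5 on the difference left 473 members. Array weights gave 731 called members and 4238 calls. Slide as a block gave 0 called members and 1 call, while 828 probes had an unadjusted p below 0.05 in the adult direction, 420 of them members (limma). On slide 1 alone, with its lone adult array, the median difference was 1.43. Leaving out 1 array gave between 698 and 1045 members, with between 660 and 742 of the 753 kept. The choice of probes favours this overlap. Called members then numbered between 0 and 554 and calls between 0 and 2058, with median differences between 1.60 and 2.02. Without both arrays numbered 1, chosen after seeing the data, there were 1212 members (738 shared), 701 called members and 3640 calls. The causes of these moves were not tested. With the replicate number as a block, 0 members and 0 probes were called. There 1505 probes had an unadjusted p below 0.05 in the adult direction, 744 of them members (limma). Arrays that share a number deviated from their group means with correlations of 0.04, 0.27 and -0.17. Adult 1 went best with P10 3 (0.24). So few correlations cannot decide whether the number pairs the arrays. Of the 47 named members, normexp moved the difference of 34 by more than the within-age SD, no background correction that of 16, leaving out both arrays numbered 1 that of 10, slide as a block that of 7 and scaling over all piRNA probes that of 2; the other sets moved 0. Members dim in a P10 array, counted in the report, lie near the lowest signal detected there.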

Other observations

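The authors' deposited table lists 390 probes as higher in adult islets that are not among the 753. Of these, 343 were not well above background on all 6 arrays or carried an outlier mark, 34 had separated ages but a difference of at most 1, 11 had an adult mean above 7, and 2 had overlapping ages. Among the 87 members outside that table, 24 had a difference below 1 in the deposited values. The largest difference of these 87 as measured here was 3.21. The P10 SD had a median of 0.53 in the 87 members outside the table and of 0.55 in the 666 inside it.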
